A study of Mus musculus with 74 samples.

Results

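The regions described here are places in the mouse genome where exactly 2 KRAB zinc finger proteins (KRAB-ZFPs) were found by ChIP-seq in different experimental setups. The setups of a pair differed in at least 1 of cell line, antibody and control, and could share the others. Peak windows of 200 bp that overlapped by 50 bp or more were merged into 48767 loci, of which 854 (1.75%) were chosen by holding the peaks of exactly 2 KRAB-ZFPs from 2 setups. These are called cross-setup loci. A further 1487 loci (3.05%) held 2 KRAB-ZFPs of the same setup, 45689 loci held 1 KRAB-ZFP and 737 held 3 or more. The members were thus selected on the peak calls, and the numbers of loci, pairs, folds, scores, tags and distances between peaks below are descriptions without a test.

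The series comprised 74 samples. In 68 of them a single epitope-tagged KRAB-ZFP was overexpressed and precipitated, and the other 6 served as controls, either input chromatin or a control precipitation. In the F9 FLAG setup, 18 KRAB-ZFPs with an N-3XFLAG tag were expressed in F9 EC cells, a mouse embryonal carcinoma line, precipitated with FLAG (F1804) and called against F9_Input and FLAG_control. In the F9 HA setup, 30 KRAB-ZFPs with peaks carried a C-3XHA or N-3XHA tag and were precipitated from F9 EC cells with HA (ab9110), with F9_Input and HA_control as controls. The third setup (F9 HA, other control) held 10 KRAB-ZFPs with a C-3XHA tag, the same cells and antibody, reads mapped with Bowtie2, and Gm14296_control as the control, which is itself a ChIP of a C-3XHA tagged sample. The ES HA setup held 9 KRAB-ZFPs with a C-3XHA tag in B6 ES cells (embryonic stem cells), precipitated with HA (clone 16B12, Covance) and called against an input alone. All of these proteins were expressed from stably integrated vectors on top of whatever the cells make themselves, and resistant clones were pooled. Each KRAB-ZFP was assayed in 1 sample, so no value of a peak has a replicate error, and in every pair the protein differs together with the setup, so that the 2 cannot be told apart. The depth of the libraries is unknown here, because the table gives only the tags in called peaks, and a peak that was not called is no sign of absent binding.

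KRAB-ZFPs are the largest family of mammalian DNA-binding repressors. An array of zinc fingers reads a DNA sequence, and the KRAB domain recruits KAP1 (Trim28), which brings in the H3K9 methyltransferase Setdb1 and other silencing factors. Many family members bind retrotransposons such as IAP elements, whose long terminal repeats (LTRs) carry their promoters, and others bind single-copy sequences including gene promoters.

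The sequences below were read from mm9 to show the kinds of DNA that pairs of KRAB-ZFPs from different setups had in common. Where a word or an oligonucleotide match is marked, they come from the loci of the pair that hold it, and among those they have the highest lower fold of the 2 peaks with a stretch outside annotated UTRs, leaving out 1 locus. They were picked after the values were seen, and loci of the pair without the word or match can have higher folds. In the first set, capitals mark the match to the oligonucleotide that the study designed as the Gm21082 target in the LTR type IAPLTR1_Mm; the oligonucleotide is printed first.

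Gm21082_IAPLTR1_Mm reporter oligonucleotide: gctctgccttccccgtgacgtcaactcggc
Gm13150 and Gm21082, locus 1, chr10:98561010-98561099 (- strand): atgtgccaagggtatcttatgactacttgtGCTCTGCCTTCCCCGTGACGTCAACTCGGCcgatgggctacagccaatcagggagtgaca
Gm13150 and Gm21082, locus 2, chr8:119427070-119427159 (+ strand): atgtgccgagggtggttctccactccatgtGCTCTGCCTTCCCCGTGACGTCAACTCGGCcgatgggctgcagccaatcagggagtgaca

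The second set shows the tandem repeat of Gm14412 and Gm21082, with the word AGAGGCAGA in capitals, and the 2 multi-copy elements of Gm14419, with the 24-base word that most loci of the pair held in capitals.

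Gm14412 and Gm21082, locus 1, chrX:149673857-149673945 (+ strand): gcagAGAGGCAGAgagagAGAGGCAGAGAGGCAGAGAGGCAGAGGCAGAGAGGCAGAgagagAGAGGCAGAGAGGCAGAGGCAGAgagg
Gm14412 and Gm21082, locus 2, chr7:130357080-130357168 (- strand): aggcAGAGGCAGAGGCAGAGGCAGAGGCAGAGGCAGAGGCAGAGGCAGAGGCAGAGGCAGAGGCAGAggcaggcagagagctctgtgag
Gm14410 and Gm14419, locus 1, chr11:85255061-85255164 (- strand): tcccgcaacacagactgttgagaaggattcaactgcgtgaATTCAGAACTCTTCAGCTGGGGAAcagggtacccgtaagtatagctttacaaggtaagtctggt
Gm14410 and Gm14419, locus 2, chr16:89997337-89997440 (+ strand): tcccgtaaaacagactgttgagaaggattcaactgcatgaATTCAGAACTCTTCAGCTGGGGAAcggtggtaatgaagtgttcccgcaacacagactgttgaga
Gm14412 and Gm14419, locus 1, chr7:3839013-3839096 (- strand): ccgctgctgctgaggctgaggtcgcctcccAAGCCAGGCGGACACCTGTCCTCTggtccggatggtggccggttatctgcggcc
Gm14412 and Gm14419, locus 2, chr11:107967265-107967348 (- strand): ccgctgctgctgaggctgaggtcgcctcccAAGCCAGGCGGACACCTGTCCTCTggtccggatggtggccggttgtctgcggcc

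The third set shows single-copy DNA, except that the last locus, of Gm13251 and Zfp759, had a median of 2 genome copies. It holds 3 loci near gene starts shared by Gm13152 and Gm14412, with CGCCGCCGC in capitals. The other 3 are loci of Gm13251, with the bases between the 2 peak centres in capitals.

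Gm13152 and Gm14412 at Srgap1, chr10:121484623-121484691 (+ strand): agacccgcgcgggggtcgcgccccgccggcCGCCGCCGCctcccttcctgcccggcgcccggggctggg
Gm13152 and Gm14412 at Sos2, chr12:70782947-70783015 (+ strand): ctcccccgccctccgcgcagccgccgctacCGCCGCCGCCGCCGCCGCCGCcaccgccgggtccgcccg
Gm13152 and Gm14412 at Pkm2, chr9:59504055-59504123 (- strand): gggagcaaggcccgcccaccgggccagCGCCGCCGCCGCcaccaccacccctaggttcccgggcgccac
Gm13235 and Gm13251, chr8:12595653-12595753 (+ strand): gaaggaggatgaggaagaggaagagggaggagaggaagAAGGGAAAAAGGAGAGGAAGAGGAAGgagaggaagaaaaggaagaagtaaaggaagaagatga
Gm13251 and Zfp457, chr1:5967023-5967123 (+ strand): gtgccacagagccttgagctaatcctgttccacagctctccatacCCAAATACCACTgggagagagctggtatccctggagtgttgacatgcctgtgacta
Gm13251 and Zfp759, chrX:144666283-144666383 (+ strand): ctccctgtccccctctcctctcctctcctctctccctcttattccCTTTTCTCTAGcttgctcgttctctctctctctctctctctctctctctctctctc

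The last set shows matches to 3 other reporter oligonucleotides, in capitals, at loci with high folds in both members. The match to Zfp661_ORR1D2 has no edit, that to Zfp617_ORR1A2 has 7 and that to Gm13139_RMER16-int has 3. The capitals are thus genome sequence and differ from the last 2 oligonucleotides.

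Zfp661 and Zfp961, Zfp661_ORR1D2 oligonucleotide, chr4:150475736-150475811 (+ strand): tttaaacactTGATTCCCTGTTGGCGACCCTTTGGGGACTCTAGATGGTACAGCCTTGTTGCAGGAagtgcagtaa
Zfp599 and Zfp617, Zfp617_ORR1A2 oligonucleotide, chr3:96183123-96183184 (- strand): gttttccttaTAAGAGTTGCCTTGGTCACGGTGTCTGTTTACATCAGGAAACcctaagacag
Gm13139 and Gm13251, Gm13139_RMER16-int oligonucleotide, chr15:49870219-49870275 (- strand): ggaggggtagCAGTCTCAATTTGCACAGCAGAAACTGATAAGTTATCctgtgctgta

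Of the 854 loci, 476 joined an F9 FLAG with an F9 HA peak. Another 145 joined F9 FLAG with F9 HA of the other control, 92 joined F9 FLAG with ES HA, 77 joined F9 HA of the other control with ES HA, 39 joined the 2 F9 HA setups and 25 joined F9 HA with ES HA. In the order named, these combinations had 540, 180, 162, 90, 300 and 270 possible pairs of KRAB-ZFPs, so the numbers of loci are not comparable as they stand. Of 1542 possible pairs across setups, 217 (14.1%) had a locus, 121 of these had exactly 1 and 18 had 10 or more. The 10 pairs with the most loci held 387 of the 854 (45.3%). At least 1 cross-setup locus was found for 66 of the 67 KRAB-ZFPs, and AW146154, with 159 peaks, had none. The median was 10 loci per KRAB-ZFP and 2.89% of its loci.

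**Figure D1:**
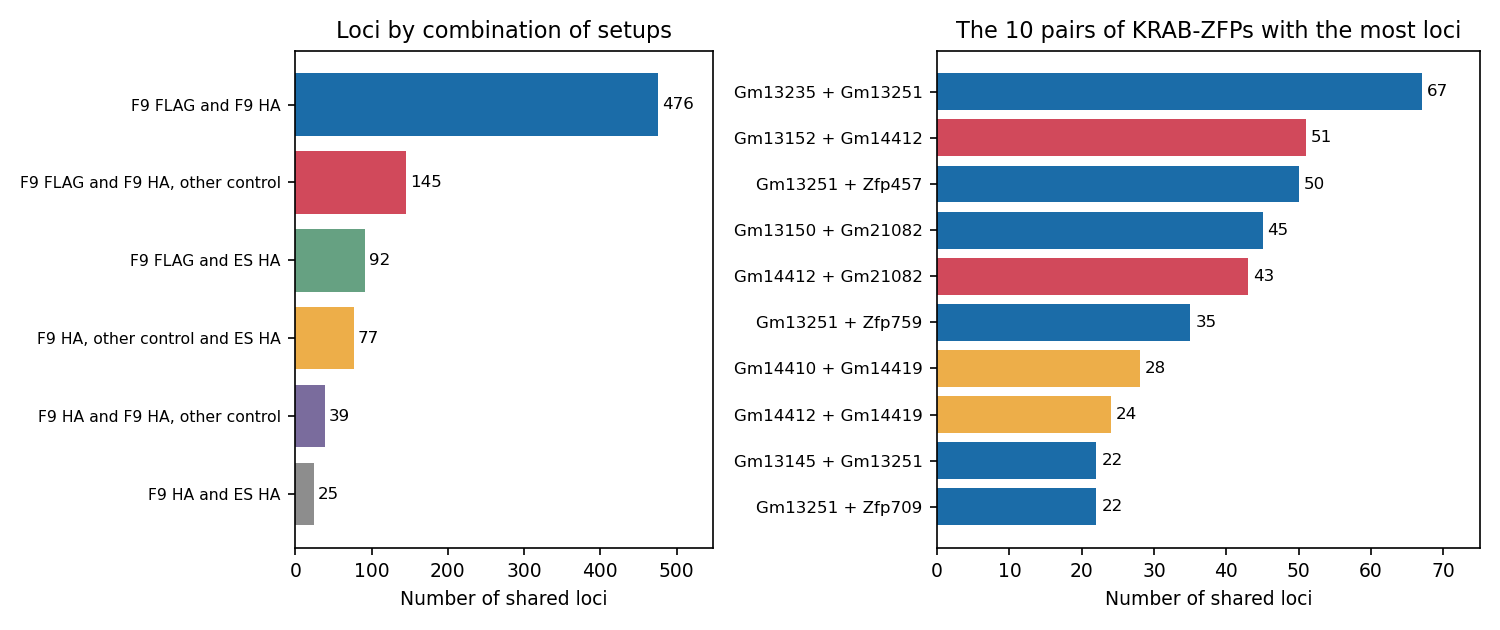
Number of cross-setup loci by combination of setups (left) and for the 10 pairs with the most loci (right, bars coloured by the combination on the left). F9 FLAG with F9 HA gave 476 loci from 540 possible pairs, and the pair Gm13235 and Gm13251 gave the most of any pair, 67.

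Gm13251 had the most cross-setup loci, 271 of its 3300 (8.21%), followed by Gm13152 with 149, Gm14412 with 145, Gm21082 with 103 and Gm13235 with 100. Together these 5 were in 604 of the 854 loci (70.7%). By share of their own loci the order was different. Gm13150 had 47 of 98 loci (48.0%) in the class and Gm14410 had 44 of 142 (30.99%), while Zfp456 had 8 of 72 (11.1%), Gm13247 had 28 of 277 (10.1%) and 2610305D13Rik had 7 of 83 (8.43%). The first 2 of these have few peaks, and their most frequent partners have many: Gm21082, the main partner of Gm13150, has 2211 peaks, and Gm14419, that of Gm14410, has 3906.

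The rule of 50 bp of overlap between windows of 200 bp keeps the 2 peak centres within 150 bp of each other. This ceiling holds for all distances between the centres of a pair below. The median distance between the 2 peak centres was 39 bp, 178 loci (20.8%) had them within 10 bp, and 495 loci (58.0%) had windows overlapping by 150 bp or more. At the threshold, 32 loci had an overlap of 50 to 59 bp and a median lower fold of 16.9, and 25 pairs of windows with an overlap of 40 to 49 bp, just outside, had a median lower fold of 12.03. The lower of the 2 folds (the enrichment over local background that MACS gives) had a median of 16.99 and lay between 5.15 and 108, and both members had 20 or more at 380 loci (44.5%). Ranked by fold among all peaks of the same KRAB-ZFP, with 100 as the highest, the median cross-setup peak stood at percentile 57 in F9 FLAG, 60.2 in F9 HA, 53.9 in F9 HA of the other control and 44.6 in ES HA. The median fold at the cross-setup loci was 26.1 in F9 FLAG, 20.04 in F9 HA, 26.5 in F9 HA of the other control and 12.1 in ES HA, and that of all peaks of these setups was 26.6, 17.2, 25.6 and 12.6. At 559 of the 854 loci (65.5%) both peaks had a false discovery rate of 5% or less, and at 44 the higher of the 2 was over 50%.

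**Figure D2:**
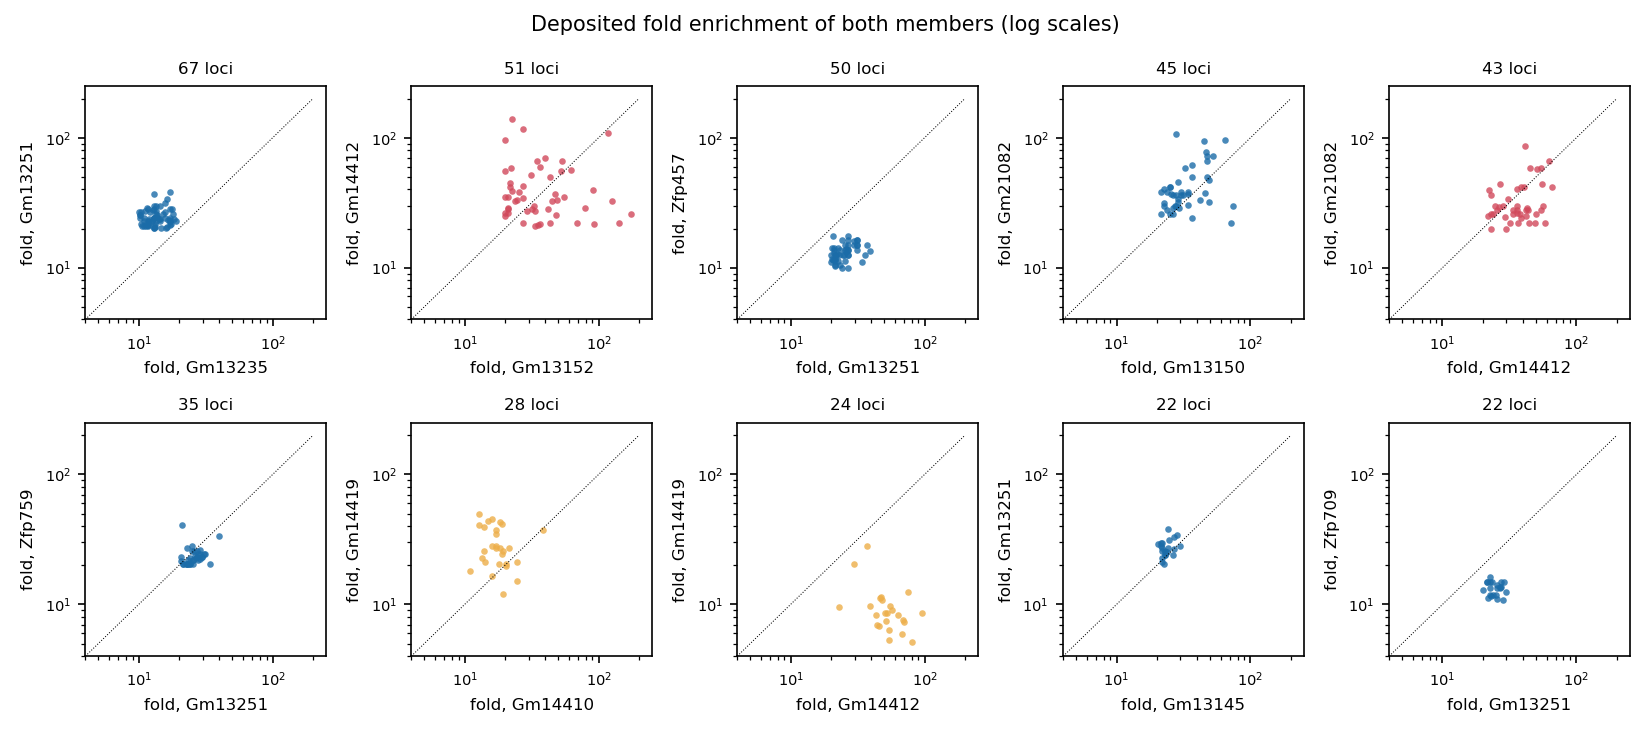
Deposited fold enrichment of both members at each locus of the 10 pairs with the most loci, on log scales; 1 point is 1 locus, colours are as in the plot of loci by pair and the dotted line marks equal folds. The pairs of Gm13251 form compact groups at low folds, with Gm13235, Zfp457 and Zfp709 under 20, whereas Gm13152 and Gm14412 reach folds over 100. The lowest fold that can appear differs by sample. Gm13235, Zfp457 and Zfp709 were called at an enrichment of 10, and Gm13251, Gm13145, Zfp759, Gm13152 and Gm14412 at 20.

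Gm13251, encoded on chromosome 4, was in 31.7% of all cross-setup loci, with 23 partners, and it was in 5 of the 10 largest pairs. These were Gm13235 (67 loci), Zfp457 (50), Zfp759 (35), Gm13145 (22) and Zfp709 (22), all F9 HA samples. The partners' genes lay on chromosome 13 for 104 of its 271 loci and on chromosome 4 for 98. The loci were mostly single-copy and away from genes' starts. A median 24-mer copy number of 1, meaning that the 24-base words of the locus occur once in the genome, was found at 226 (83.4%). By place, 143 were intergenic and 122 intronic, and 9 lay within 1 kb of a transcript start. Their median G+C content was 44.7%. Folds were modest, with a median of 24.3 for Gm13251 (range 20.0 to 62.6) and 15.7 for the partner (10.0 to 138), and 23.8 at the loci of Gm13251 alone. Peaks of Gm13251 were called at an enrichment of 20 and those of its partners at 10 or 20, so lower folds could not appear.

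The 5 pairs of Gm13251 had no common word. The 9-base word most in excess over all loci was held by 5 of 67 loci with Gm13235 (AAGAAGGAG, 0.369% of all loci), 6 of 50 with Zfp457 (CACACACAC, 2.38%), 4 of 35 with Zfp759 (GAGAGAGAA, 2.66%), 4 of 22 with Gm13145 (AGGGAAGGA, 0.494%) and 3 of 22 with Zfp709 (GCTTATTTA, 0.191%). The locus with the highest lower fold of the first pair, chr8:12595591-12595815 in an intron of Spaca7, a sperm acrosome gene, had a fold of 22.8 for Gm13251 and 19.02 for Gm13235. That of Zfp457 was intergenic, chr1:5966968-5967178, with 20.9 for Gm13251 and 17.5 for Zfp457. That of Zfp759, chrX:144666228-144666437, was also intergenic and reached 39.8 for Gm13251 and 33.4 for Zfp759. The Gm13145 locus, chr8:52333181-52333404, lay far from any annotated start and had folds of 34.2 and 28.2, and the Zfp709 locus, chr17:69091808-69092138 in an intron of L3mbtl4, had 22.8 and 16.3. The peak centres were 25 bp apart in the median for Gm13235, 20.5 bp for Zfp457, 31 bp for Zfp759, 15 bp for Gm13145 and 62 bp for Zfp709.

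The pair Gm13152 and Gm14412 differed from these in place and composition. Gm13152 (F9 FLAG, gene on chromosome 4) and Gm14412 (F9 HA of the other control, gene on chromosome 2) shared 51 loci, and 37 of them (72.5%) lay within 1 kb of a transcript start, against 11.2% of all merged loci. The median G+C content was 70.4% and the median ratio of observed to expected CpG 0.860, and 43 loci had a median copy number of 1. Among the loci of a single one of the proteins, 49.4% of those of Gm13152 and 10.6% of those of Gm14412 lay within 1 kb of a start. Of the 100 loci that Gm13152 shared with another KRAB-ZFP of its own setup, 64% did. Folds ranged from 20.0 to 175 for Gm13152 and from 21.1 to 140 for Gm14412.

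The word CGCCGCCGC (or GCGGCGGCG on the other strand) was in the central 200 bases of 28 of the 51 loci (54.9%) and of 1.60% of all loci. This word was chosen as the 9-base word most in excess at these 51 loci, so its high share at them follows from that choice. The shares below describe the loci, and the classes were not matched for G+C content. At the 37 loci near a start the word was in 26 (70.3%), against 12 of 109 other cross-setup loci near a start (11.01%). It was in 12.4% of the 5116 such loci of 1 KRAB-ZFP and 12.6% of the 143 such same-setup loci. Loci of Gm13152 alone held it in 11.2% and loci of Gm14412 alone in 3.36%. The highest lower fold of all cross-setup loci was in this pair, at chr6:13627779-13627993 in a UTR of B630005N14Rik, 80 bp from its start, with 117 for Gm13152 and 108 for Gm14412. The other loci of the pair among the 12 with the highest lower folds were an intergenic locus on chr10:41837399-41837637 (61.8 and 56.5) and one in a coding exon of C2cd4d on chr3:94167943-94168159 (53.6 and 65.9). The printed loci lay 431 bp from a start of Srgap1, with 36.4 for Gm13152 and 59.1 for Gm14412, 253 bp from a start of Sos2, a Ras exchange factor, with 34.4 and 65.7, and 301 bp from a start of Pkm2, a pyruvate kinase, with 48.6 and 33.2.

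Across all pairs, 146 cross-setup loci (17.1%) lay within 1 kb of a start, each nearest to a different gene, and 106 of them had a peak of Gm13152, Gm14412 or both. In the other pairs among the 12 highest lower folds, Gm14412 met Zfp810 at a UTR of 2410127L17Rik (chr19:18745230-18745494), with 73.4 for Gm14412 and 123 for Zfp810. It met LOC102638055 4 bp from a start of Zscan21, a zinc finger gene with a SCAN domain (chr5:138558011-138558285), with 63.7 for Gm14412 and 151 for LOC102638055.

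**Figure D3:**
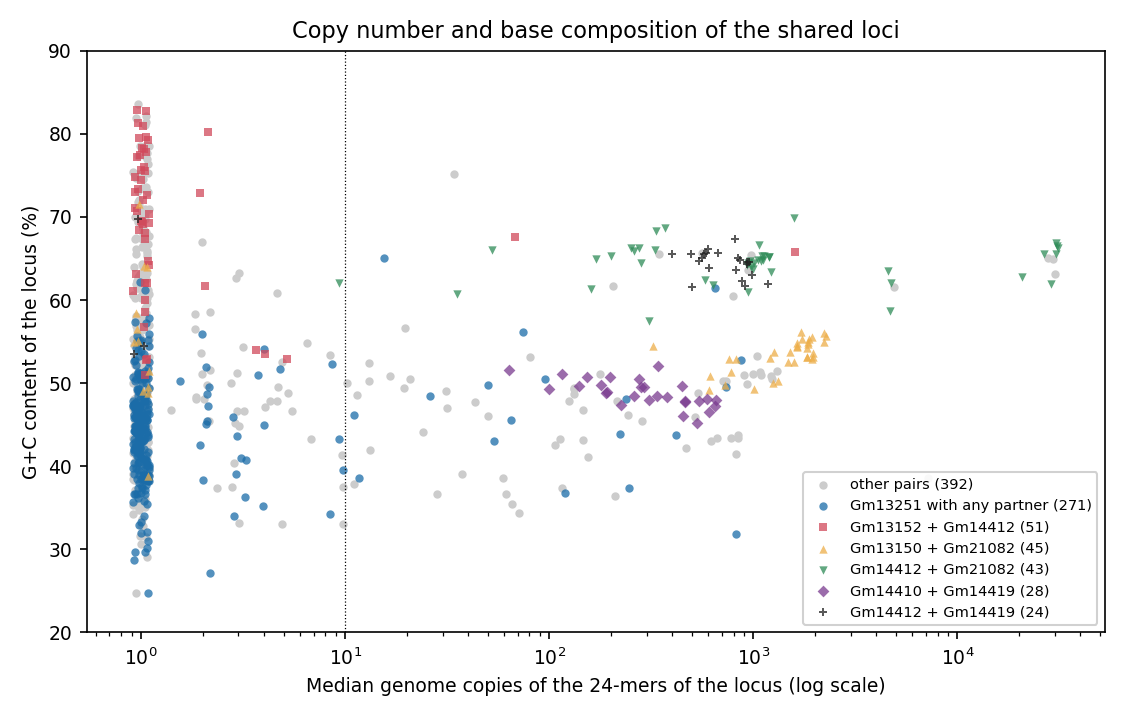
G+C content of the 854 cross-setup loci against the median number of genome copies of their 24-base words (log scale, points spread slightly sideways); the dotted line marks 10 copies. Loci of Gm13251 lie mostly at 1 copy and under 60% G+C, loci of Gm13152 and Gm14412 mostly at 1 copy and above 60%, and 4 pairs form separate groups of multi-copy loci.

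Loci whose 24-base words had a median of 10 or more genome copies, called multi-copy here, made up 215 of the 854 (25.2%), against 35.7% of all merged loci. Reads from such sequence with equally good positions were placed pseudo-randomly at 1 of them, so the copy at which a peak appears is less certain than the type of element. The pairs Gm13150 with Gm21082, Gm14412 with Gm21082, Gm14410 with Gm14419 and Gm14412 with Gm14419 had 33, 43, 28 and 21 of them. By place, 465 of the 854 loci were intergenic (54.45%, against 59.2% of all merged loci) and 314 intronic (36.8% against 33.8%). Another 43 were in UTRs (5.04% against 3.54%), 26 in coding exons (3.04% against 2.62%) and 6 in other exons (0.703% against 0.837%).

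Gm13150 (F9 HA) and Gm21082 (F9 FLAG) shared 45 loci, 45.9% of the loci of Gm13150 and 2.04% of those of Gm21082. The Gm21082 reporter oligonucleotide of IAPLTR1_Mm matched with at most 6 edits within 150 bp of the centre at 33 of the 45 (73.3%), and at 4.09% of all loci. The sequences printed in the first set are among these, and both match the oligonucleotide without an edit. It matched at 4 of the 43 loci of Gm13150 alone (9.30%) and at 1799 of the 2049 of Gm21082 alone (87.8%). On the strand of the oligonucleotide, the peak centre of Gm13150 lay 4.5 bp upstream of the middle of the match in the median and that of Gm21082 3.5 bp upstream. In printed locus 1 the fold was 66.04 for Gm21082 and 47.7 for Gm13150, and in locus 2, in an intron of 2310061C15Rik, it was 47.6 and 48.6. The highest lower fold of the pair was at one of its 12 single-copy loci, chr5:112555490-112555723, whose nearest start is that of Miat, a long noncoding RNA gene, with 96.1 for Gm21082 and 63.98 for Gm13150, the latter at a false discovery rate of 100%. The peaks of Gm13150 had high false discovery rates, with a median of 25% at its cross-setup loci and 26.5% at the loci it held alone, and none of the 45 loci had 5% or less in both members.

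The same oligonucleotide matched at all 9 loci of Gm21082 with Gm14419 (ES HA), and here the centres were apart. That of Gm21082 lay 6.5 bp downstream of the middle of the match in the median and that of Gm14419 116.5 bp downstream, and Gm14419 was downstream of Gm21082 at 9 of 9 loci, by 57 to 135 bp.

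Gm14412 and Gm21082 shared 43 loci, all multi-copy, with a median of 973 copies, a median G+C content of 64.8% and a median CpG ratio of 0. The word AGAGGCAGA was in all 43 and in 2.76% of all loci. It belongs to a tandem repeat of AGGCAG: 41 of the 43 loci (95.3%) held 3 or more such units in a row, against 11 of the 811 other cross-setup loci (1.36%) and 1.80% of all loci, with up to 22 units in a row. Loci of Gm14412 alone held the repeat in 27.1% and loci of Gm21082 alone in 2.29%. The highest lower folds were at chrX:149673899-149674187 in an intron of Klf8, a transcription factor gene, with 66.1 for Gm21082 and 62.1 for Gm14412, and at chr7:130357123-130357412, 1026 bp from a start of Slc5a11, a sodium-coupled transporter gene, with 58.0 and 54.4.

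Gm14410 (F9 HA of the other control) and Gm14419 (ES HA), both encoded on chromosome 2, shared 28 loci, all multi-copy with 60.5 to 641 copies. The 24-base word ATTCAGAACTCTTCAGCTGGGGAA was in the central 200 bases of 27 of them and in 1.24% of all loci. It was also in 11 of the 12 loci that Gm14410 shared with Gm4631 (ES HA), in 31 of the 54 loci of Gm14410 alone and in 9.28% of those of Gm14419 alone. The word was not limited to cross-setup loci: it was in 81 of the 134 same-setup loci of Gm14419 and in 62 of the 67 of Gm4631. Read on the strand of the word, the centre of Gm14410 lay 9.5 bp upstream of it in the median and that of Gm14419 108 bp upstream. Gm14419 was upstream of Gm14410 at 26 of the 28 loci, by a median of 100.5 bp over all 28. The highest lower fold was at chr11:85255092-85255368 in an intron of Bcas3, with 38.3 for Gm14410 and 37.5 for Gm14419. The peaks of Gm14410 also had high false discovery rates, 15.1% in the median at its cross-setup loci, and at none of the 28 loci were both members at 5% or less.

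Gm14412 and Gm14419 shared 24 loci, 21 of them multi-copy, at a different element. The 24-base word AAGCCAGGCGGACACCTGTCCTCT was in 20 of the 24 and in 1.48% of all loci, and in 25.2% of the loci of Gm14412 alone but 0.973% of those of Gm14419 alone. Gm14412 had high folds here, 51.8 in the median, and Gm14419 low ones, 8.54 in the median and at percentile 9.01 of its own peaks. In printed locus 1, in an intron of Pira5, Gm14412 had 75.3 and Gm14419 12.5, and in locus 2, in an intron of Prkca (protein kinase C alpha), they had 47.1 and 11.5. The centre of Gm14412 stayed within 10 bp of its median place in the element, 34.5 bp upstream of the word, at 11 of 20 loci, and that of Gm14419 at 4 of 20. The locus with the highest lower fold of this pair was single-copy, at a UTR of Hoxd3, a homeobox gene (chr2:74550008-74550308), with 36.9 for Gm14412 and 28 for Gm14419.

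**Figure D4:**
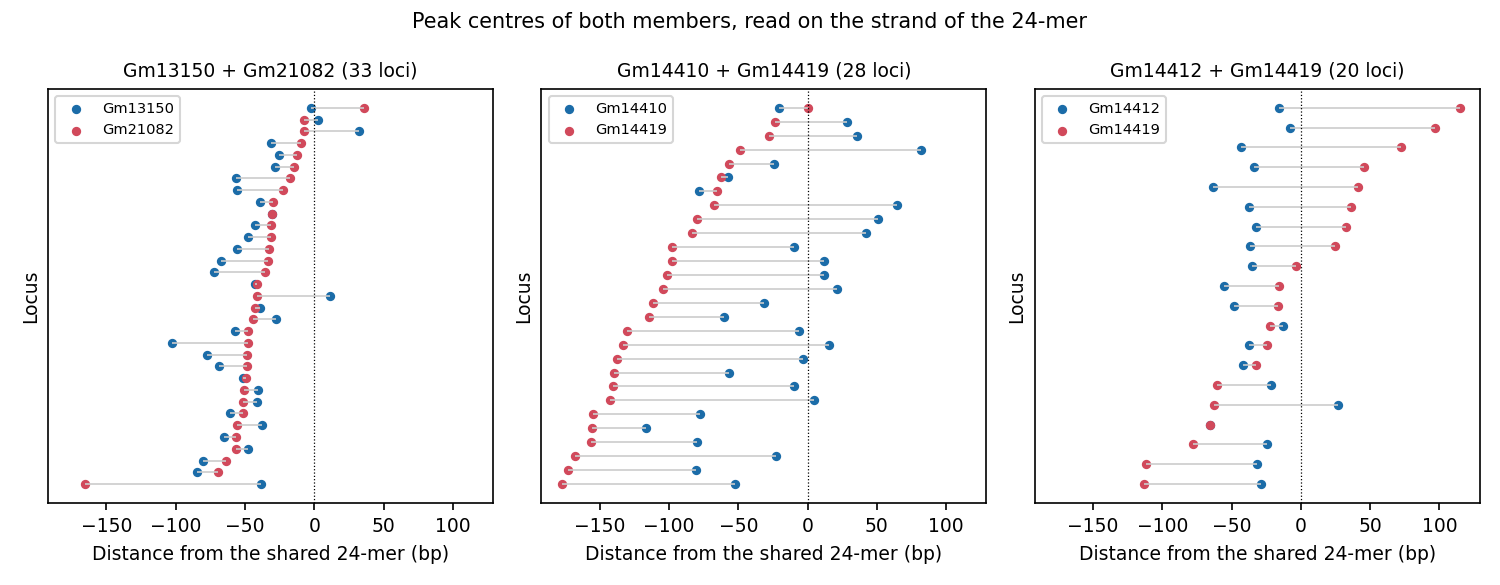
Peak centres of both members in bp from the middle of the 24-base word shared by each pair (dotted line), read on the strand of the word; 1 row is 1 locus, and loci are sorted by the member in red. Centres of Gm13150 and Gm21082 run close together, those of Gm14419 lie upstream of Gm14410 at 26 of 28 loci, and those of Gm14419 scatter on either side of Gm14412.

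Matches to 18 reporter oligonucleotides of the study were sought in the same way, allowing edits at up to 20% of the bases. At 1 or more cross-setup loci, 9 of them matched. The study designed them to hold target sequences of the KRAB-ZFPs they are named for. A match at the peaks of that same protein is therefore no independent finding. Zfp661_ORR1D2 matched 1 locus of all 48767, the cross-setup locus of Zfp661 and Zfp961 in an intron of Camta1, a calmodulin-binding transcription activator (chr4:150475674-150475896). It matched without an edit, and the folds were 99.8 for Zfp961 and 86.5 for Zfp661. Gm13139_RMER16-int matched 7 cross-setup loci (0.820%, against 0.416% of all loci) and 45 of the 1487 same-setup loci, a higher share. All 7 cross-setup loci were of Gm13139 (F9 HA) and Gm13251. 2 of the 12 loci with the highest lower folds were of this pair, chr15:49870143-49870349 with 89.8 for Gm13139 and 62.6 for Gm13251, and chr14:16805251-16805468 with 117 and 58.3. The false discovery rates of Gm13251 at these loci were 33.3% and 13.04%. Zfp617_ORR1A2 matched 13 cross-setup loci in 8 pairs, 5 of them of Zfp599 and Zfp617, and its share was no higher than in all loci (1.52% against 1.71%). The centre of Zfp599 lay on the same side of that of Zfp617 at all 5, read on the strand of the oligonucleotide, by 51 to 124 bp, and the locus at chr3:96183039-96183296 in an intron of Gm17575 had 65.7 for Zfp599 and 59.2 for Zfp617. Rex2_MMETn, a target in the ETn family of LTR elements, matched 5 cross-setup loci (0.585%, against 0.131% of all loci) and 10 of the 1487 same-setup loci. All 5 cross-setup loci were of Rex2 and Zfp961. The centres of both members were 1 to 145 bp apart.

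Lists of genes were set against the loci by counting genes that held a locus or started within 10 kb of one. Zinc finger genes were at 13 loci (1.52% of the cross-setup loci, 1.05% of all loci). They included Zscan21 (above), Zfp652 with Gm14412 and Gm21082 (folds 56.5 and 30.02), Zfp704 with Gm13154 and Gm14420 (24.8 and 32.2), Zfp667 with Gm13145 and Gm13251 (24.1 and 38.3) and Zbtb7c with Gm14412 and Gm21082 (23.1 and 26.02). Of 36 annotated genes of the KAP1 silencing machinery, 2 were near a locus (0.234% of the cross-setup loci, 0.121% of all loci). Near Cbx3, which encodes a heterochromatin protein, a locus in an intron of the neighbouring Hnrnpa2b1 had 47.7 for Gm13150 and 50.1 for Gm21082. A UTR of Trim33, a relative of Kap1, had 20.9 for Gm13152 and 35.1 for Gm14412. Of 31 genes of the pluripotency network there were 2 (0.234% and 0.0964% of loci). Nr5a2, a nuclear receptor, had 28.1 for Gm13251 and 30.01 for Gm13145 in an intron, and Lifr, the receptor of LIF, had 20.9 for Gm13152 and 28.8 for Zfp874a 245 bp from a start. A single locus, of Gm13225 and Gm13235, lay in the imprinted Blcap and Nnat region (1 locus for 39 imprinted genes, 0.117% of the cross-setup loci and 0.0718% of all, folds 12.9 and 11.4). Its 24-base words had a median of 126 copies. Olfactory receptor genes were at 5 loci (0.585% of the cross-setup loci, 0.660% of all), vomeronasal receptor genes at 1 (0.117% and 0.316%), and none of 29 germline genes or 37 protocadherin genes was at one. The last 2 lists were at 0.0677% and 0.109% of all loci, so few or none would be counted among 854 at those shares.

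Properties that the choice of loci did not use were compared within each KRAB-ZFP, between its cross-setup loci and its other loci: the share of multi-copy loci, the share within 1 kb of a transcript start and the mean G+C content. Each setup was tested on its own, with sign flips over KRAB-ZFPs having 5 or more loci of both kinds, and 2 of the 24 tests (8.33%) passed after Benjamini-Hochberg adjustment. KRAB-ZFPs are different proteins rather than replicates. A p-value here tells how often random signs of their differences gave a mean at least as large as the observed one. It treats the KRAB-ZFPs as independent, although several of them share a partner. The levels below are means over KRAB-ZFPs, in which a KRAB-ZFP with 5 loci weighs as much as one with many, and not shares of all loci of a setup.

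In F9 HA, the cross-setup loci were richer in G+C than the loci of 1 KRAB-ZFP, 50.1% against 46.8%. The difference was 3.30 ± 4.76 percentage points (SD, n = 20 KRAB-ZFPs) and positive in 16 of 20, with a two-sided permutation p of 0.00129 (adjusted p = 0.0310). Zfp874a (17.8 points) and Zfp712 (11.4 points) had the largest differences. They shared 5 of 5 and 8 of 15 of their cross-setup loci with Gm13152, whose loci held alone had a mean G+C content of 62.35%. No setting left out Gm13152, so its part in the difference was not tested. In F9 FLAG, the cross-setup loci were poorer in G+C than same-setup loci, 50.4% against 54.6%. This difference was -4.22 ± 4.195 points (SD, n = 13) and negative in 10 of 13, with an exact permutation p of 0.00415 (adjusted p = 0.0498). The first call was lost under 5 and the second under 7 of 9 alternative settings, with adjusted p-values of 0.0168 to 0.281 and of 0.0498 to 0.387. The difference between the setups was not tested.

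**Figure D5:**
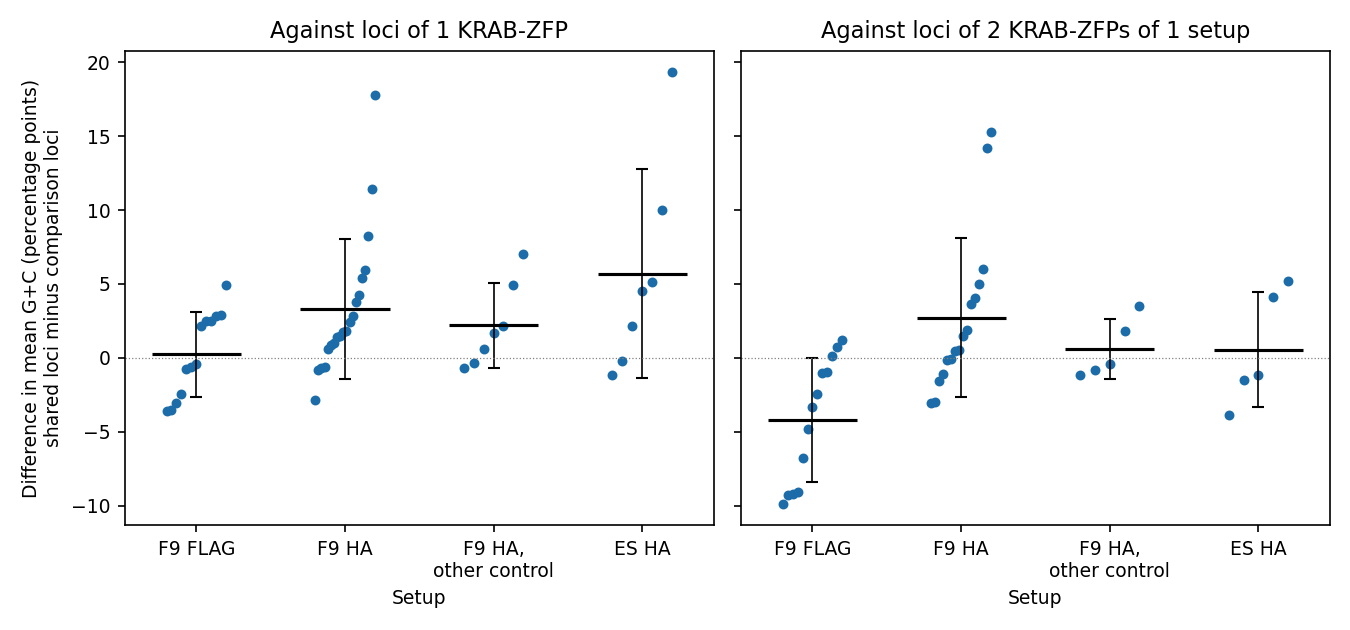
Difference in mean G+C content (percentage points) between the cross-setup loci of a KRAB-ZFP and its loci held alone (left) or with 1 other KRAB-ZFP of its setup (right); 1 point is 1 KRAB-ZFP, the wide line is the mean and the bar 1 SD. The F9 HA points on the left lie above 0 in 16 of 20, and the F9 FLAG points on the right below 0 in 10 of 13.

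The share of loci near a gene start passed in no setup. In F9 HA, the mean share per KRAB-ZFP within 1 kb of a start was 24.02% at cross-setup loci against 10.3% at same-setup loci, a difference of 13.7 ± 23.4 points (SD, n = 16) that was positive in 11 and negative in 3 (exact permutation p = 0.00940, adjusted p = 0.0752). It was 3.15 points with a minimum of 3 loci per KRAB-ZFP and 5.09 points within 200 bp of a start. The largest differences were again those of Zfp874a (75 points) and Zfp712 (59.5 points), and the part of their partner Gm13152 was not tested. In F9 FLAG the mean share per KRAB-ZFP was 16.9% against 29.1%. This difference was -12.2 ± 17.95 points (SD, n = 13), negative in 11 and positive in 2 (exact permutation p = 0.0286, adjusted p = 0.150). It was -6.91 points with a minimum of 10 loci. Against loci of 1 KRAB-ZFP, it was 10.2 ± 23.3 points in F9 HA (SD, n = 20, permutation p = 0.0416, adjusted p = 0.166), or 5.91 with a minimum of 3 loci and 4.19 within 200 bp of a start, and 11.02 ± 11.9 points in ES HA (SD, n = 7, exact permutation p = 0.0313, adjusted p = 0.150). No test of the multi-copy share passed. The largest difference was in ES HA against same-setup loci, 38.9% against 84.4%, with all 5 KRAB-ZFPs lower (exact permutation p = 0.0625, the smallest that 5 allow, adjusted p = 0.167). This difference of -45.5 points was -13.4 with the ES samples of different inputs as separate setups and -23.5 with a minimum of 10 loci.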

How the data were processed

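Per the labels and the study's methods, the authors mapped reads to mm9 with Bowtie or Bowtie2 and called peaks per sample, without pooling, with MACS 1.4.2. F9 peaks of the first 2 setups had to be called against both input and control ChIP. The authors' thresholds varied by sample, with p of 1e-10 or 1e-05 and an enrichment of 20 or 10 in F9 cells, and p of 1e-05 alone in ES cells, and were loosened where few peaks were found, so numbers of peaks across samples are not comparable as they stand. For each peak the authors deposited a 200 bp window at the summit, the tags as raw counts, a score of -10 times the log10 p-value, the fold enrichment as a ratio and the false discovery rate as a percent. Of 53255 peaks under 68 names, 1 name with 244 peaks is not among the labels and was set aside, and 1 KRAB-ZFP of the labels has no peaks here, which left 53011 peaks of 67 KRAB-ZFPs. The paper discarded some of its 68 datasets, for which it obtained neither a motif nor a target transposable element and saw a low signal to noise ratio. No KRAB-ZFP was left out here on that ground. Tags in peaks ranged from 1681 to 540220 per KRAB-ZFP (median 11203).

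Windows overlapping by 50 bp or more were merged. Copy number was the median number of exact occurrences of the 24-mers of a locus, on both strands of the assembled chromosomes of NCBIM37, which is mm9. Genes were those of gencode vM1. Words of 9 and 24 bases were counted on both strands in the central 200 bases of all loci, and oligonucleotides in the central 300 bases with edits at up to 20% of their length. The words named for a pair were chosen from the loci of that pair, so their shares at those loci are descriptions. Tests were two-sided sign-flip permutation tests over KRAB-ZFPs with 5 or more loci of each kind (exact up to 500000 flips, otherwise 100000 resamples), adjusted by Benjamini-Hochberg over 24 tests, and checked on simulated data. Same-setup loci count for both of their KRAB-ZFPs. Pairs named are the 10 with the most loci. Loci named are the 12 with the highest lower fold and the best of each pair, and KRAB-ZFPs named are the top 5 by number and the top 5 by share of cross-setup loci. Other pairs and loci, such as those with oligonucleotide matches, were singled out after their values were seen. The sequence of 1 locus that the rule for printed sequences would include is not reported here. From each gene list, up to 5 genes at the highest lower folds are named. Members and gene lists were chosen with earlier results of these data known. Coordinates are mm9, counted from 1. Python 3.11.15, numpy 2.4.6, pandas 2.3.3 and pysam 0.24.0 were used. Alternatives were other overlaps, stricter peak thresholds, other minimum numbers of loci, copies and distances, ES inputs as separate setups, and leaving out Gm13251.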

Additional observations from a re-analysis of the deposited data

How the results depend on the processing

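The number of cross-setup loci ranged from 607 without Gm13251 to 967 with an overlap of 1 bp, around 854, and was 613 at a false discovery rate of 5% or less, where the pairs Gm13150 with Gm21082 and Gm14410 with Gm14419 lose their loci. The G+C difference to loci of 1 KRAB-ZFP in F9 HA (3.30 points) lost its call at an overlap of 1 bp (2.71), at a false discovery rate of 5% (2.72), without Gm13251 (3.32), with a minimum of 10 loci (2.44) and at loci of copy number 1 (3.55). The G+C difference to same-setup loci in F9 FLAG (-4.22 points) lost it at an overlap of 100 bp (-4.46) or 1 bp (-4.48), at a score of 100 and fold of 10 (-3.09), at a false discovery rate of 5% (-3.28), without Gm13251 (-5.43), with a minimum of 10 loci (-3.49) and at copy number 1 (-3.67). The transcript-start difference to same-setup loci in F9 FLAG passed within 200 bp of a start (-12.9 points, adjusted p = 0.0155).

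Differences that changed sign had not passed. For the multi-copy share these were F9 FLAG against same-setup loci at 100 bp (-2.38), a minimum of 10 loci (-2.79) and 100 copies (-0.377); F9 FLAG against loci of 1 KRAB-ZFP at a false discovery rate of 5% (7.82), 2 copies (0.283) and 100 copies (1.56); F9 HA against same-setup loci at the stricter score (-1.80) and 2 copies (-5.60); F9 HA with the other control against same-setup loci at the stricter score (7.43) and false discovery rate (10.4); and ES HA against loci of 1 KRAB-ZFP with separate inputs (9.92) and a minimum of 10 loci (3.06). For the transcript-start share they were F9 FLAG against loci of 1 KRAB-ZFP at 200 bp (-1.73), and F9 HA with the other control at 1 bp of overlap against loci of 1 KRAB-ZFP (-0.187) and against same-setup loci without Gm13251 (2.98), at 5 kb (10.2) and at 200 bp (1.14). For G+C it was F9 HA with the other control against same-setup loci with a minimum of 10 loci (-0.818). The cause of these changes was not tested. In the other 192 cases the differences kept direction and call, but in 71 of them the size moved by more than 1.5 times. No difference could be computed for ES HA at a false discovery rate of 5%, nor for ES HA against same-setup loci at the stricter score. The tests compare loci within a KRAB-ZFP, and in that sense they are paired. No paired analysis was possible between samples because the samples, 1 per KRAB-ZFP, share no replicate between groups that the labels number. The unknown depth of the libraries limits what a missing peak can say.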

Other observations

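Beyond the 10 largest pairs, 8 others had 10 or more loci. Gm13152 met Zfp661 (F9 HA) at 18 loci, of which 10 lay within 1 kb of a transcript start, Gm14401 (ES HA) at 17, of which 11 did, and Gm14419 (ES HA) at 12, of which 6 did, with median G+C contents of 66.9%, 65.6% and 61.7%. Gm13247 (F9 FLAG) and Zfp808 (F9 HA) shared 10 loci with a median G+C content of 37.0%, where Zfp808 had a median fold of 77.8 and Gm13247 of 13. Gm13225 (F9 FLAG) and Gm13235 (F9 HA) shared 10 loci whose centres lay 125.5 bp apart in the median. Gm13251 had 10 loci each with Gm6710 and Zfp872, and Gm14410 had 12 with Gm4631. Cross-setup loci were spread over the genome. Their number ran from 1 on chromosome Y and 17 on chromosome 19 to 66 on chromosome 2, and 18 of the 854 (2.11%) had another within 10 kb.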
